A study of Mus musculus with 48 samples.

Results

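Spaceflight effects in the cortex (CT) were measured in the 3 FLT-SAL mice and the 3 GC-SAL mice, which gave 6 of the 48 areas of illumination (AOIs) in the series. The FLT-SAL AOIs are the cortex AOIs on slide FLT_SAL_2 and the GC-SAL AOIs are those on slide GC_SAL_2, and all 15782 genes of the cortex table entered the comparison. All mice were male C57BL/6 mice, 10 weeks old at launch. FLT-SAL mice received saline and spent 35 days aboard the space station, and they reached the laboratory up to 20 h after splashdown. GC-SAL mice received saline and lived for 35 days in flight hardware cages on the ground, on a schedule that started 3 days later, with the same food, a temperature of 26 to 28 °C and 12 h of light a day. The FLT-BuOE and GC-BuOE mice, 3 in each group, were kept in the same ways but were given BuOE (MnTnBuOE-2-PyP5+, a manganese porphyrin that mimics superoxide dismutase) under the skin at 1 mg/kg in 0.2 mL from 7 days before launch and weekly after that. Each AOI was 1 mouse, and every group had a slide of its own, so that effects of the slide and of the group cannot be told apart. An AOI holds all the cells in it, and in such bulk samples fewer cells of a type and less RNA per cell cannot be told apart.

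Values are Q3-normalized counts, in which the count of a gene in an AOI is divided by the upper quartile of that AOI. Deduplicated counts per AOI ran from 988810 to 1440631 in FLT-SAL and from 582154 to 1124863 in GC-SAL, and the negative probes, which match no transcript, read between 13.3 and 16.8. A gene was marked near background when its mean was at or below 1.5 times the mean of the negative probes in both saline groups, which held for 2146 genes (13.6%). GC-SAL mouse 1 stood apart in its label, with 140 nuclei against 500 and 578 in the other GC-SAL AOIs and 549 to 598 in FLT-SAL. GC-SAL mouse 3 stood apart in its values, with a summed level of 4737 for 30 pan-neuronal genes against 6905 and 8838 in the other GC-SAL mice. *Slc17a7*, a vesicular glutamate transporter gene of excitatory neurons, read 253, 272 and 286 in FLT-SAL and 226, 310 and 165 in GC-SAL. *Prox1*, which marks dentate granule cells, read 22.2 to 34.4 in the 6 AOIs. Values of these genes in the hippocampal AOIs are not given here, so the readings do not by themselves identify cortex.

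Myelin is the compacted membrane that oligodendrocytes wrap around axons, and its sheath is built of a small set of abundant proteins such as Mbp, Mobp and Cnp, held together at its margins by claudin 11. Immediate early genes such as *Arc*, *Egr3* and *Nr4a1* are transcribed within minutes of neuronal firing, and many of them respond to the transcription factor CREB. In the cortex, myelin is denser in deep than in upper layers.

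In CT, 14 genes differed between FLT-SAL and GC-SAL, 10 of them higher (0.0634% of all genes) and 4 lower (0.0253%) in flight. The higher genes included the oligodendrocyte and myelin genes *Ptgds*, *Mobp*, *Apod*, *Cldn11* and *Cnp*, together with *Sgk1*, *Nptx1*, *Rbm3* and 4930578G10Rik, by 0.79 to 1.56 on the log2 scale. The lower genes were the immediate early genes *Arc*, *Egr3* and *Nr4a1* and the co-chaperone gene *Dnajb5*, by 0.82 to 1.56. The 14 genes are 0.0887% of those tested, and 832 genes (5.27%) had an unadjusted p below 0.05, of which 453 were higher (2.87%) and 379 lower (2.40%). At any size of difference, 51.3% of all genes were higher and 48.7% lower in flight. A gene was called when limma gave an adjusted p below 0.05 over all genes and a difference of more than 1.5-fold. In all 14 genes the 3 FLT-SAL mice did not overlap the 3 GC-SAL mice, as in 10.4% of all genes (5.14% higher and 5.23% lower), and none of the 14 was near background. With 3 mice against 3, an exact two-sided permutation test of a single gene cannot go below p = 0.1, so the calls rest on the spread that limma shares between genes. The calls also rest on letting that spread follow the expression level: without this trend *Ptgds*, *Mobp*, *Apod* and *Arc* were called and the other 10 were not. All 14 were also called by edgeR, which called 37 genes (0.235%), 17 of them higher (0.108%) and 20 lower, and by DESeq2, which called 19 (0.120%). After quantile normalization limma called 27 genes, 14 higher and 13 lower, against 10 and 4 here.

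**Figure D1:**
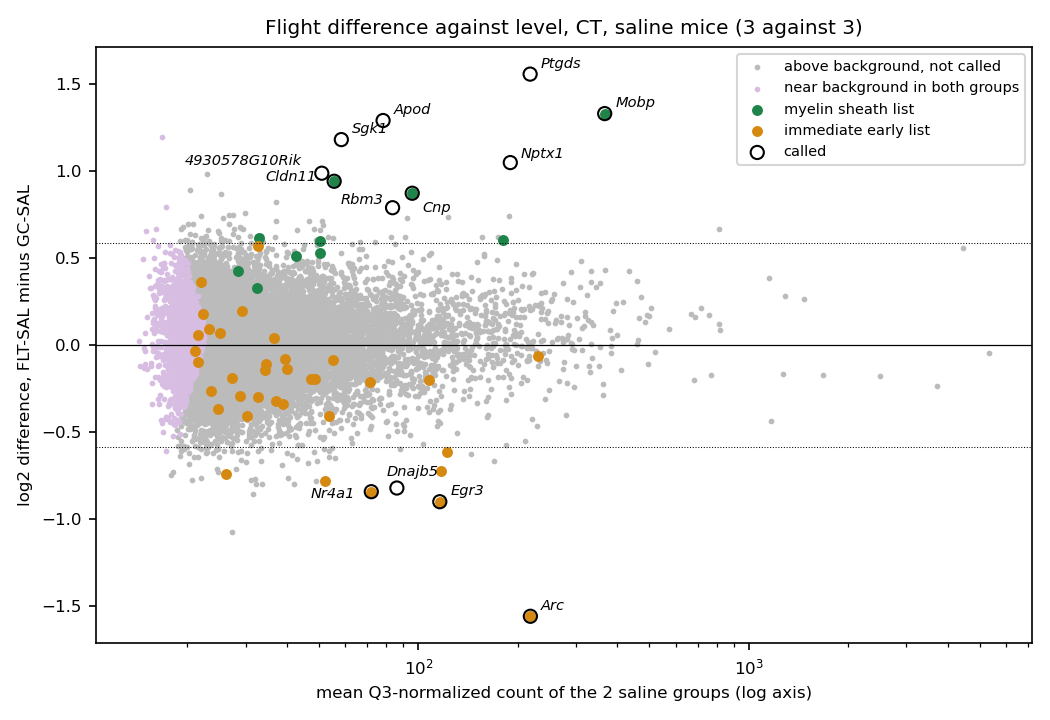
Log2 difference FLT-SAL minus GC-SAL (y axis) against the mean Q3-normalized count of the 2 saline groups (x axis, log scale) for the genes in CT, a few left out. Circles mark 13 of the 14 called genes, green points the myelin sheath list, orange points the immediate early list and pale violet points the 2146 genes near background, and dotted lines mark 1.5-fold differences. The 10 myelin genes drawn lie above 0, and *Arc* is the lowest point.

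The myelin sheath genes were higher in flight as a list. Of 12 listed genes 11 were measured, 4 rose, none fell and 7 did not pass the test, and the median difference was 0.60 on the log2 scale against 0.0064 over all genes. All 11 had a higher mean in FLT-SAL, 9 with an unadjusted p below 0.05 in limma (2.87% of all genes). The summed Q3-normalized count of the 11 genes was 1455, 1992 and 1470 in FLT-SAL and 820, 893 and 862 in GC-SAL. Every flight mouse lay above every ground mouse, and the flight mice varied among themselves more than the ground mice did. The list holds *Mobp*, and the immediate early list *Arc*, which the study singled out on these samples, so the direction of both lists is not independent evidence.

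*Mobp* (chr9:120149707-120181484, plus strand, GRCm38) encodes the myelin-associated oligodendrocyte basic protein, which packs the layers of central myelin. It read 459, 653 and 466 in FLT-SAL and 207, 203 and 208 in GC-SAL. The ground mice were nearly identical, and flight mouse 2 was the highest. *Mobp* rose by 1.33 ± 0.16 (SE) on the log2 scale, with an adjusted p of 2.8e-07 in limma. *Cldn11* (chr3:31149920-31164324, plus strand) encodes claudin 11, the tight junction protein of the sheath. It read 73.5, 90.6 and 57.0 in FLT-SAL and 31.5, 41.9 and 39.1 in GC-SAL, and it rose by 0.94 ± 0.18 (SE, limma adjusted p = 0.0065). *Cnp* (chr11:100574904-100591729, plus strand) encodes the phosphodiesterase that keeps cytoplasmic channels open in the sheath. It read 114, 149 and 110 in FLT-SAL and 66.7, 74.3 and 60.5 in GC-SAL, and it rose by 0.87 ± 0.16 (SE, limma adjusted p = 0.0027). In these 3 genes flight mouse 2 was the highest of the 6, and without this mouse *Cnp* and *Cldn11* were no longer called, with a median of 0.51 over the 11 genes. The call of *Cldn11* was also lost without mouse 1 of either group.

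The other 7 sheath genes did not pass the test. *Mbp*, which encodes myelin basic protein, read 195, 240 and 217 in FLT-SAL against 125, 155 and 149 in GC-SAL, a difference of 0.60 ± 0.16 (SE, limma adjusted p = 0.22). *Mog*, which encodes a glycoprotein of the outermost myelin surface, read 56.0, 67.5 and 54.9 against 44.9, 34.3 and 43.7. *Omg*, which encodes a myelin glycoprotein that inhibits neurite growth, read 64.0, 68.5 and 50.3 against 38.8, 45.1 and 35.4. These 3 genes had groups that did not overlap, as in 10.4% of all genes. *Mag*, *Ermn*, *Tspan2* and *Opalin* differed by 0.62, 0.51, 0.43 and 0.33 on the log2 scale, and their groups overlapped.

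*Ptgds* and *Apod* are 2 of the 22 measured genes of the wider oligodendrocyte list, and they were its members that rose. The study singled out both on these samples, so their rise within this list is not independent evidence. *Ptgds* (chr2:25466709-25470046, minus strand) encodes the prostaglandin D2 synthase, which oligodendrocytes, meninges and choroid plexus make. It read 301, 400 and 274 in FLT-SAL and 146, 95.9 and 91.2 in GC-SAL, and it rose by 1.56 ± 0.18 (SE, limma adjusted p = 1.7e-07). *Apod* (chr16:31296192-31314808, minus strand) encodes the lipid carrier apolipoprotein D. It read 92.4, 167 and 79.5 in FLT-SAL and 44.9, 45.1 and 40.02 in GC-SAL, and it rose by 1.29 ± 0.19 (SE, limma adjusted p = 3.8e-05). The remaining 20 genes of this list did not pass the test, and the list's median was 0.22, with 18 higher and 4 lower. Without FLT-SAL mouse 2 the median was 0.08, with 14 higher and 8 lower, and it was 0.33 without FLT-SAL mouse 3. Among them *Gsn*, which encodes the actin-severing protein gelsolin, differed by 0.70, and *Plekhb1* by 0.58. In the oligodendrocyte precursor list 3 of 9 genes were higher, the median was -0.07, and none passed the test.

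The meninges and choroid plexus list, which marks the other sources of *Ptgds*, had a median of -0.07 over 10 measured genes, with 3 higher and 7 lower. Its summed level was 193 to 239 in FLT-SAL and 205 to 253 in GC-SAL, and 3 of its genes were near background. The choroid plexus genes *Ttr* and *Folr1* were not analysed here.

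**Figure D2:**
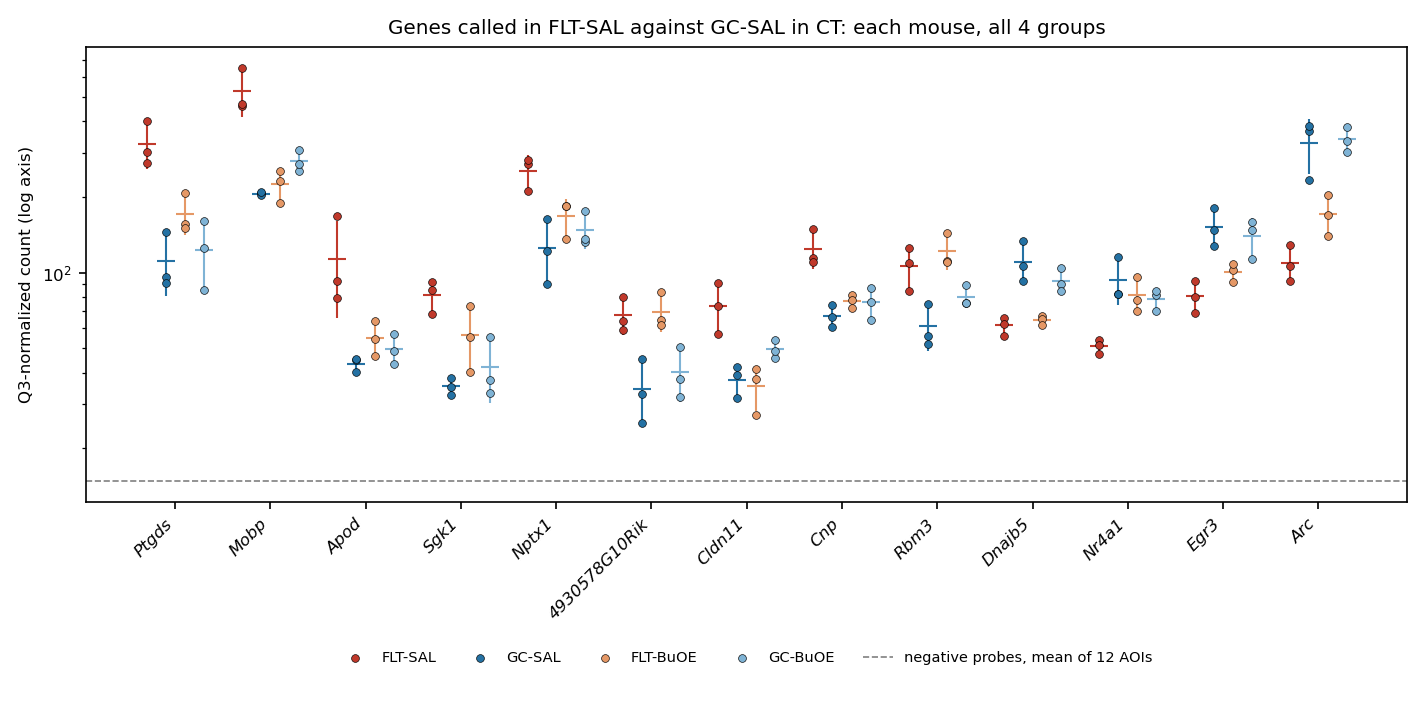
Q3-normalized count (y axis, log scale) of 13 of the 14 called genes in each mouse of the 4 groups in CT, with the mean (bar) and SD (line) of 3 mice, and the negative-probe value (dashed). FLT-SAL and GC-SAL points do not overlap in any of these genes. FLT-BuOE points of *Mobp* and *Cldn11* lie below those of GC-BuOE.

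Neuronal genes were described apart from myelin genes. None of the 30 pan-neuronal genes passed the test, 21 were higher and 9 lower in flight, and the median was 0.16. Their summed level was 6521, 7334 and 8345 in FLT-SAL and 6905, 8838 and 4737 in GC-SAL, so that the groups overlapped. Without GC-SAL mouse 3 the median was -0.08, with 8 higher and 22 lower. The largest difference in the list was in *Nefm*, which encodes the medium neurofilament protein and read 99.7, 121 and 170 in FLT-SAL and 230, 256 and 140 in GC-SAL (log2 difference -0.67 ± 0.19 SE, limma adjusted p = 0.23). The ratio of the myelin sheath sum to the pan-neuronal sum within an AOI was 0.223, 0.272 and 0.176 in FLT-SAL and 0.119, 0.101 and 0.182 in GC-SAL. On this ratio GC-SAL mouse 3 overlapped the flight mice.

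Of the 20 excitatory neuron genes 1 rose, *Nptx1* (chr11:119538719-119547753, minus strand), which encodes the secreted synaptic protein neuronal pentraxin 1. It read 210, 271 and 281 in FLT-SAL and 89.7, 164 and 122 in GC-SAL, and it rose by 1.05 ± 0.17 (SE, limma adjusted p = 0.00045). The list's median was 0.02, with 10 higher and 10 lower, and the call of *Nptx1* was lost without GC-SAL mouse 1. None of the 17 measured GABAergic interneuron genes passed the test (median 0.08). Within that list *Lamp5*, a marker of neurogliaform cells and of upper layers, read 0.59 lower on the log2 scale.

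None of the 25 measured layer genes passed the test in limma. All 11 upper layer genes had a lower mean in flight, with a median of -0.27, which ran from -0.42 without FLT-SAL mouse 1 to -0.18 without FLT-SAL mouse 2. Of the 14 deep layer genes 10 had a higher mean, with a median of 0.18. The deep layer median was 0.08, with 8 higher and 6 lower, without GC-SAL mouse 3, it was 0.35 without GC-SAL mouse 2, and it was 0.43 after subtraction of the negative probes. The upper layer sum was 435, 382 and 405 in FLT-SAL and 483, 507 and 518 in GC-SAL, without overlap. The deep layer sum was 709, 748 and 840 in FLT-SAL and 830, 822 and 556 in GC-SAL, with overlap and with GC-SAL mouse 3 the lowest. *Kcnh5*, a potassium channel gene of the upper layer list, read 32.7, 26.5 and 31.8 in FLT-SAL and 47.3, 52.7 and 60.5 in GC-SAL (log2 difference -0.80 ± 0.20 SE, limma adjusted p = 0.15). *Hs3st4*, a heparan sulfate sulfotransferase gene of the deep layer list, read 48.03, 70.5 and 73.4 against 31.5, 38.8 and 44.7 (log2 difference 0.71 ± 0.19 SE, limma adjusted p = 0.20). Both genes were called by edgeR. The upper layer sum separated the saline groups as the myelin sum did, in the opposite direction, and the deep layer sum did not separate them. The ratio of the upper to the deep layer sum within an AOI was 0.614, 0.511 and 0.482 in FLT-SAL. In GC-SAL it was 0.582, 0.617 and 0.933, so the groups overlapped on this ratio. The part of layer position in the myelin difference was not tested.

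**Figure D3:**
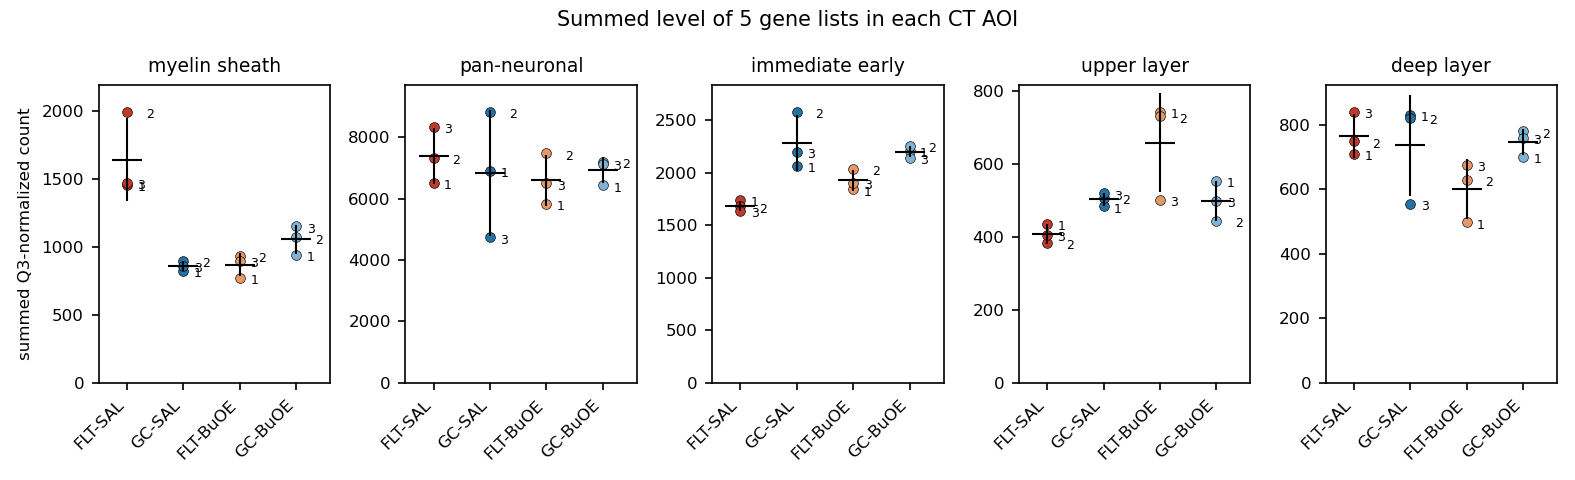
Summed Q3-normalized count (y axis, from 0) of 5 gene lists in each of the 12 CT AOIs, by group (x axis), with the mouse number beside each point and the mean (bar) and SD (line) of 3 mice. The myelin sheath sums of FLT-SAL, 1455 to 1992, lie above those of the other 3 groups, and the pan-neuronal sums of FLT-SAL and GC-SAL overlap.

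Immediate early genes were lower in flight as a list, and 3 of them fell. All 36 listed genes were measured, 33 did not pass the test, and the median was -0.20, with 28 lower and 8 higher. The summed level of the list was 1739, 1679 and 1639 in FLT-SAL and 2067, 2582 and 2198 in GC-SAL, and every flight mouse lay below every ground mouse. In limma an unadjusted p below 0.05 was reached by 9 genes that were lower (2.40% of all genes). It was also reached by 1 that was higher (2.87% of all genes), *Ptgs2*, the inducible cyclooxygenase gene, whose groups overlapped. edgeR, run on the deposited counts, called 0.235% of all genes in either direction. Of the 36 it called 6 lower: *Arc*, *Egr3*, *Nr4a1*, *Fos*, *Egr1* and *Npas4*.

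*Arc* (chr15:74669083-74672570, minus strand), which encodes a synaptic protein that governs the removal of AMPA receptors, read 129, 92.6 and 106 in FLT-SAL and 234, 365 and 383 in GC-SAL. The highest flight mouse was well below the lowest ground mouse, and *Arc* fell by 1.56 ± 0.17 (SE) on the log2 scale, with a limma adjusted p of 3.8e-08. *Egr3* (chr14:70077203-70082614, plus strand), which encodes a zinc finger transcription factor, read 69.1, 80.0 and 92.4 in FLT-SAL and 127, 180 and 147 in GC-SAL. *Egr3* fell by 0.90 ± 0.16 (SE, limma adjusted p = 0.0019). *Nr4a1* (chr15:101254269-101274795, plus strand), which encodes an orphan nuclear receptor, read 53.8, 47.5 and 51.3 in FLT-SAL and 82.5, 115 and 81.9 in GC-SAL, and it fell by 0.84 ± 0.16 (SE, limma adjusted p = 0.0063). GC-SAL mouse 2 was the highest for *Egr3* and *Nr4a1*, and without it *Nr4a1* was no longer called, as was the case without FLT-SAL mouse 2. The call of *Egr3* was lost without FLT-SAL mouse 1.

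Other members of the list had the same order of groups without passing the test in limma. *Npas4*, a neuron-specific activity-dependent transcription factor gene, read 37.1, 36.5 and 36.9 in FLT-SAL and 57.0, 97.2 and 47.5 in GC-SAL (log2 difference -0.78 ± 0.19 SE, limma adjusted p = 0.12). *Egr1* read 91.0, 71.5 and 103 against 125, 173 and 141 (log2 difference -0.72 ± 0.16 SE, limma adjusted p = 0.052). *Fos*, a subunit of AP-1, read 18.9, 19.5 and 18.5 against 25.5, 45.7 and 28.9, so its flight values lay little above the negative probes. *Nrn1*, *Homer1* and *Fosb* differed by -0.62, -0.41 and -0.41 on the log2 scale, and their groups did not overlap, as in 10.4% of all genes. *Dnajb5* (chr4:42949814-42959425, plus strand), an Hsp40 co-chaperone gene outside the list, read 56.0, 66.0 and 62.6 in FLT-SAL and 92.2, 133 and 106 in GC-SAL, and it fell by 0.82 ± 0.16 (SE, limma adjusted p = 0.0063), a call lost when FLT-SAL mouse 1 was left out and when GC-SAL mouse 2 was.

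Promoters were read from the RefSeq table of GRCm38.p6, over the 250 bases before a transcript start and on the strand of the gene. Of the 14 called genes 9 had an entry, and of the 36 immediate early genes 27. The core of the cAMP response element, TGACG on either strand, lay in 17 of these 27 windows (63.0%), against 2904 of the 12484 windows of genes in the cortex table (23.3%). Among the 9 called genes with an entry it lay in 2 windows (22.2%), those of *Dnajb5* and *Nr4a1*. Of the 9 immediate early genes that were lower at an unadjusted p below 0.05 in limma, 5 had a window, and *Arc* and *Egr3* had none. All 5 windows held the core, as did 12 of the other 22 windows of the list. *Nr4a1*, *Fos*, *Homer1* and *Fosb* are shown because they belong to those 5 and carry the core outside annotated exons, and *Mobp* is shown as the called myelin gene with the lowest p and an entry. The core is in capitals, as TGACG or, where it lies on the opposite strand, CGTCA.
Nr4a1 promoter, chr15:101266596-101266845, plus strand: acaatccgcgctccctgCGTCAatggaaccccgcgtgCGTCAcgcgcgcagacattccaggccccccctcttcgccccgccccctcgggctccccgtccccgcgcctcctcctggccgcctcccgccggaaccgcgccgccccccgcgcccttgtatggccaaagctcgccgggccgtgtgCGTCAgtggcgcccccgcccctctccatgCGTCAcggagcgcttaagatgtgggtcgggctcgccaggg
Fos promoter, chr12:85473640-85473889, plus strand: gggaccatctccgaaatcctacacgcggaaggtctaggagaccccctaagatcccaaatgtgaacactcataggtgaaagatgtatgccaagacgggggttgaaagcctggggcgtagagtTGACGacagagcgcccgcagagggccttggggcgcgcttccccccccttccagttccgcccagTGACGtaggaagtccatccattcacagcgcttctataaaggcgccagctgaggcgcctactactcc
Homer1 promoter, chr13:93303507-93303756, plus strand: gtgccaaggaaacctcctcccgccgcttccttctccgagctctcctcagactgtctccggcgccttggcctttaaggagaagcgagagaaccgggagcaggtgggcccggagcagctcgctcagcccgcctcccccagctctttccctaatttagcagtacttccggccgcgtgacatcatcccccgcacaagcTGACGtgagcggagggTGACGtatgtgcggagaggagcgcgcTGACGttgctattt
Fosb promoter, chr7:19310052-19310295, minus strand: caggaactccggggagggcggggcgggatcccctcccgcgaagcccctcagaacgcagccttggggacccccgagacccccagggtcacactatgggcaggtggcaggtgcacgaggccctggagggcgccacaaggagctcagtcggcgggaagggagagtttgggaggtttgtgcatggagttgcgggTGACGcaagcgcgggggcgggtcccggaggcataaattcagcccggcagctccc
Mobp promoter, chr9:120149492-120149706, plus strand: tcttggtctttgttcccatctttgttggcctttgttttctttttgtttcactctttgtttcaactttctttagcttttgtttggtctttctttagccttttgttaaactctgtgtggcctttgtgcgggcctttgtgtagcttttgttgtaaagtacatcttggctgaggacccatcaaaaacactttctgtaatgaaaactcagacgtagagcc
The *Nr4a1* window held the core 4 times, beginning 233, 213, 69 and 40 bases before the start, *Homer1* 3 times, *Fos* 2 times and *Fosb* 1 time. None of the 8 myelin sheath windows held it. Other motifs were searched in the same way on both strands, and a window could hold several of them. These were AACAAT (1 form of the core bound by SOX proteins), TGANTCA (AP-1), CANNTG (E-box), TATAAA (the box of the core promoter) and TGCNCNC (metal response element). Among genes in the cortex table they lay in 7.02%, 5.27%, 60.2%, 9.90% and 49.6% of windows. In the immediate early windows they lay in 7.41%, 0%, 66.7%, 14.8% and 66.7%, and in the myelin sheath windows in 0, 0, 4, 0 and 6 of the 8. A match describes the letters of a window and does not show that a factor bound there. Other forms of the SOX core were not searched, so a window without AACAAT may still hold a SOX site.

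Among 23 measured glucocorticoid responsive genes, 1 rose. *Sgk1* (chr10:21882184-21999903, plus strand), a kinase gene induced by corticosteroids and by changes in cell volume, read 68.4, 85.0 and 91.3 in FLT-SAL and 35.2, 38.1 and 32.6 in GC-SAL. The lowest flight mouse was above the highest ground mouse, and *Sgk1* rose by 1.18 ± 0.19 (SE, limma adjusted p = 0.00034). The list's median was 0.18, with 15 higher and 8 lower. The 7 genes with an unadjusted p below 0.05 in limma were all higher (2.87% of all genes). Without FLT-SAL mouse 3 the median was 0.08 and 4 genes had such a p, and after subtraction of the negative probes the median was 0.32. The metallothionein genes *Mt1* and *Mt2*, which encode closely similar metal-binding proteins, differed by 0.62 and 0.62, and *Plin4*, a lipid droplet coat gene, by 0.98, without passing the test in limma. *Plin4* was called by edgeR. *Fkbp5*, a co-chaperone of the glucocorticoid receptor, read 36.4, 38.0 and 51.3 against 32.7, 43.2 and 30.7, and *Per1* differed by -0.04.

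Among 20 measured cold and heat responsive genes, 1 rose. *Rbm3* (chrX:8138975-8145880, minus strand), which encodes an RNA-binding protein induced by mild cold, read 84.4, 109 and 125 in FLT-SAL and 52.2, 74.96 and 55.8 in GC-SAL, and it rose by 0.79 ± 0.17 (SE, limma adjusted p = 0.021). *Rbm3* was the least stable of the 14 calls, and it was lost in 4 of the 12 fits that left out 1 mouse, which lacked flight mouse 2, flight mouse 3, ground mouse 1 and ground mouse 3 in turn. *Cirbp*, the other cold-inducible RNA-binding protein gene, read 59.7, 55.0 and 71.3 in FLT-SAL and 43.7, 40.7 and 32.6 in GC-SAL (log2 difference 0.66 ± 0.18 SE, limma adjusted p = 0.22). The heat shock genes *Hspa1a*, *Hsph1* and *Stip1* differed by -0.53, -0.42 and -0.48, and the list's median was -0.12, and it was -0.02 when GC-SAL mouse 2 was left out and -0.20 when ground mouse 3 was. The called gene 4930578G10Rik (chr4:42735545-42846248, plus strand) belongs to no list. It read 58.9, 64.0 and 80.0 in FLT-SAL and 32.7, 45.1 and 25.1 in GC-SAL, and it rose by 0.99 ± 0.19 (SE, limma adjusted p = 0.0063), a call lost without mouse 3 of either group.

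No gene of the remaining lists passed the test in limma. Medians were 0.10 for 20 astrocyte genes, -0.08 for 15 microglial genes, 0.05 for 15 endothelial and mural genes, -0.02 for 18 circadian clock genes, 0.06 for 28 antioxidant genes and 0.10 for 75 oxidative phosphorylation genes. Of the oxidative phosphorylation genes 59 were higher (51.3% of all genes), and their groups did not overlap in 1 of the 75 (10.4% of all genes). Without GC-SAL mouse 3, 32 of them were higher and 43 lower, and their median was -0.02. The extracellular matrix and integrin list had 49 measured genes, 29 higher and 20 lower, with a median of 0.07. *Itga7*, an integrin subunit gene, read 24.7, 26.5 and 35.9 in FLT-SAL and 16.98, 18.4 and 21.4 in GC-SAL (log2 difference 0.58 ± 0.24 SE, limma adjusted p = 0.86). *Col4a2*, a basement membrane collagen gene, read 27.7, 44.0 and 35.9 against 74.0, 66.7 and 46.5 (log2 difference -0.78 ± 0.19 SE, limma adjusted p = 0.094), and edgeR called it. Of hemoglobin and erythrocyte genes 1 was measured, at 58.2 to 149 in FLT-SAL and 35.2 to 97.8 in GC-SAL.

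Genes near background can show wide differences on few counts. *Gm9936*, the gene near background with the widest difference, read 21.1, 21.5 and 24.6 in FLT-SAL and 3.64, 10.2 and 19.5 in GC-SAL. Its log2 difference was 1.19 ± 0.31 (SE, limma adjusted p = 0.17), and its ground mean of 11.1 was below the negative-probe value. The next 5 such genes, *Pter*, *Olfr794*, *Fga*, *Ptgr1* and *Ltb*, differed by 0.60 to 0.79 in absolute log2 units, and none passed the test. *Prepl*, an endopeptidase-like gene well above background, read 82.2, 82.0 and 103 in FLT-SAL and 52.2, 68.6 and 55.8 in GC-SAL (log2 difference 0.59 ± 0.16 SE, limma adjusted p = 0.23).

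**Figure D4:**
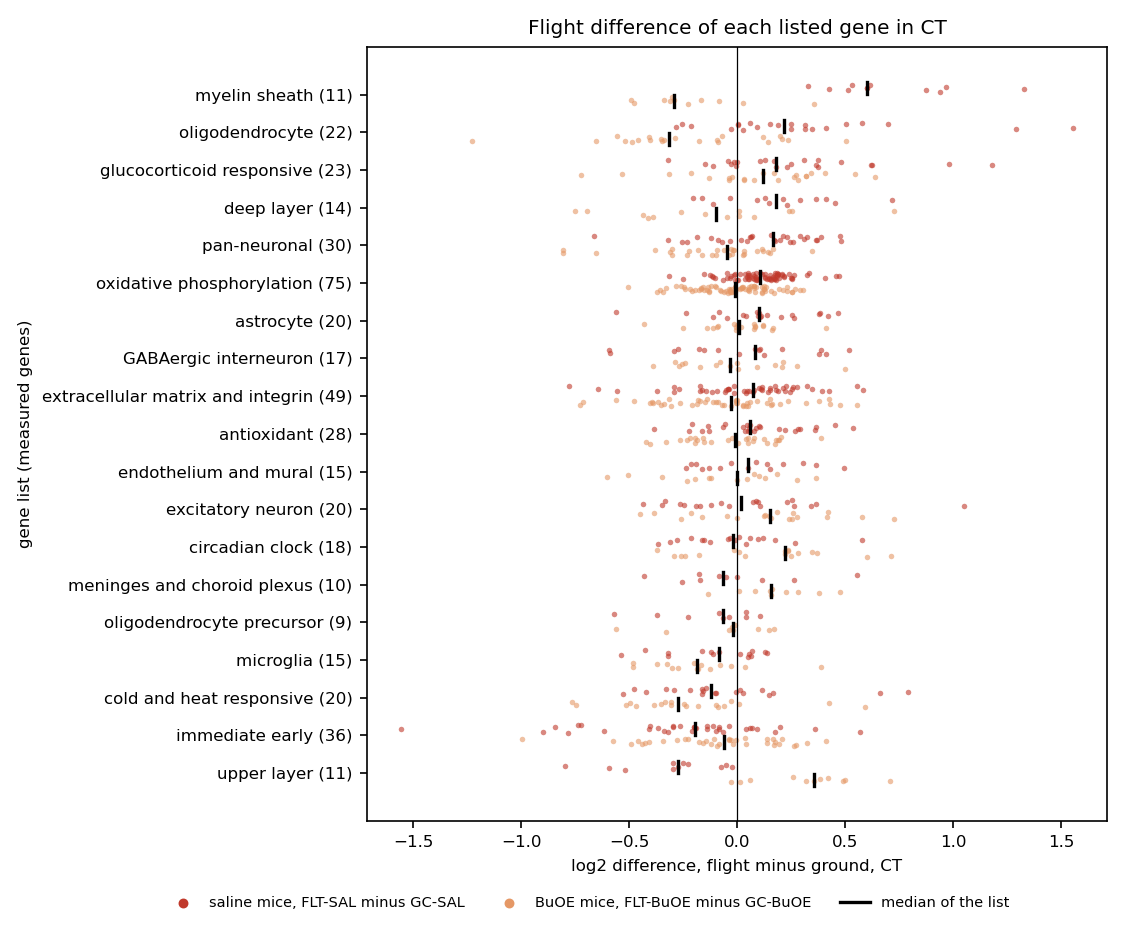
Log2 difference, flight minus ground, of each measured gene (points) and its median (black bar) in 19 gene lists in CT, for saline mice (upper point row) and BuOE mice (lower point row). The myelin sheath median is 0.60 in saline mice and -0.29 in BuOE mice, and the upper layer median is -0.27 and 0.36.

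The 6 BuOE mice did not enter the saline differences, but the 12 CT AOIs formed 1 limma fit with 1 shared spread. The tests in saline and in BuOE mice are therefore not independent. In BuOE mice FLT-BuOE differed from GC-BuOE in 2 genes (0.0127% of those tested), 1 of which was *Arc*. *Arc* read 203, 169 and 139 in FLT-BuOE and 378, 334 and 302 in GC-BuOE, and it fell by 1.00 ± 0.17 (SE). Of the 14 genes called in saline mice 10 had the same sign in BuOE mice, 7 of them with an unadjusted p below 0.05 (6.65% of all genes), and 4 had the opposite sign. *Rbm3* differed by 0.59 and 4930578G10Rik by 0.80 in BuOE mice, close to their saline values of 0.79 and 0.99. *Egr3* and *Dnajb5* differed by -0.46 and -0.51, *Ptgds* by 0.50, *Sgk1* by 0.41, *Nptx1* by 0.18 and *Apod* by 0.14, while *Nr4a1* and *Cnp* lay at 0.04 and 0.03.

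The flight difference of 3 genes, *Mobp* and *Cldn11* among them, itself differed between saline and BuOE mice (0.0190% of genes tested). *Mobp* read 190, 253 and 231 in FLT-BuOE and 254, 308 and 271 in GC-BuOE, and its interaction was 1.64 ± 0.23 (SE, limma adjusted p = 3.9e-05). *Cldn11* read 27.1, 41.1 and 37.7 against 45.7, 48.7 and 53.9, with an interaction of 1.43 ± 0.26 (SE, limma adjusted p = 0.0070). In both genes the BuOE flight mice were lower than the BuOE ground mice, without overlap, though for *Mobp* the closest mice read 253.5 and 253.9. The myelin sheath sum was 772 to 935 in FLT-BuOE and 941 to 1150 in GC-BuOE, against 820 to 893 in GC-SAL. The FLT-BuOE AOIs held 416 to 448 nuclei and the GC-BuOE AOIs 470 to 570, and the part of AOI size was not tested. Over the sheath list, 2 genes were higher and 9 lower in BuOE flight mice, with a median of -0.29. In these mice 3 of the 11 had an unadjusted p below 0.05 in limma (6.65% of all genes). For the interaction 9 of the 11 had such a p (4.81% of all genes). The interaction contains the saline difference, in which 9 of the 11 had such a p, so its count is not separate evidence. In these mice the upper layer sum was 742, 729 and 502 in FLT-BuOE and 553, 444 and 498 in GC-BuOE, with overlap. The deep layer sum was 497, 628 and 677 against 701, 779 and 759, without overlap. The part of layer position in the interaction was not tested. For *Arc*, *Ptgds*, *Apod* and the other called genes the interaction did not pass the test, which does not show that the differences were alike.

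**Figure D5:**
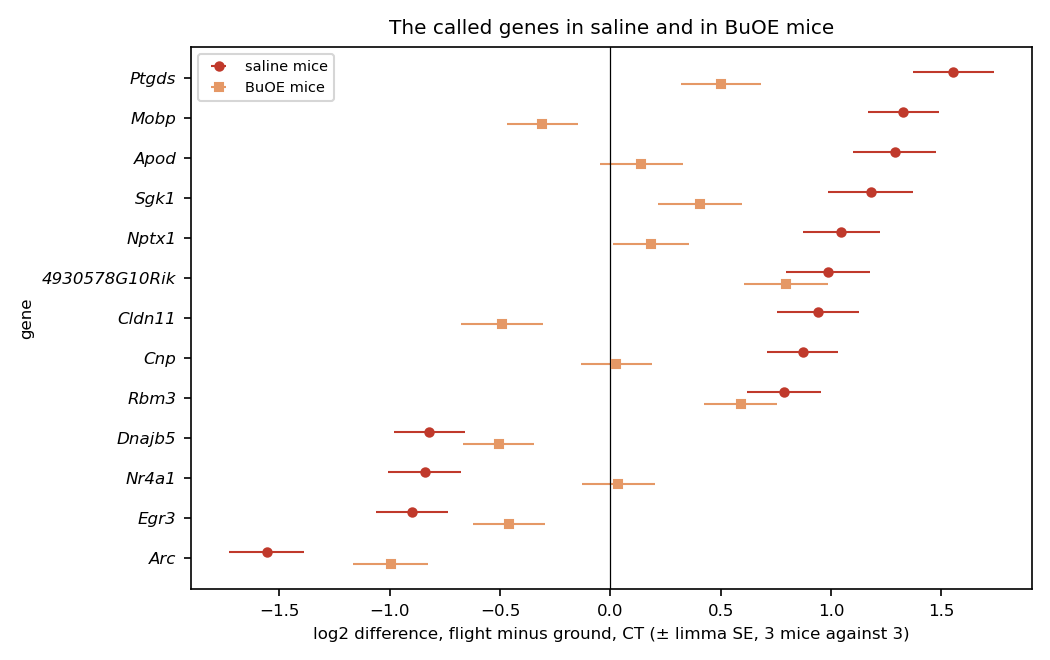
Log2 difference, flight minus ground, with its limma SE (x axis) for 13 of the 14 called genes (y axis) in saline mice (circles) and BuOE mice (squares), 3 mice against 3. *Mobp* and *Cldn11* lie on opposite sides of 0, and *Arc* lies below -0.9 in both.

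The frontal cortex (FCT) was sampled in the same 6 saline mice. There, 13 of the 14 genes had the sign they had in CT, and 3 were called (8 of all genes, 0.0507%). *Ptgds* differed by 1.80, *Arc* by -1.996 and *Sgk1* by 0.93 in FCT, and the differences between the regions did not pass the test. *Mobp*, *Cldn11* and *Cnp* differed by 0.79, 0.74 and 0.61 in FCT, and the sheath list's median was 0.53. *Nptx1* was the gene with the opposite sign: it read 149, 249 and 227 in FLT-SAL and 308, 306 and 259 in GC-SAL in FCT. The CT difference exceeded that in FCT by 1.56 ± 0.24 (SE, limma with the mouse as a random block, adjusted p = 0.0012), and it was 1 of 5 genes (0.0317%) with such a difference.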

How the data were processed

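Digital spatial profiling (GeoMx, mouse whole transcriptome probes) was performed by the authors on sections of fixed left hemibrains. The authors trimmed, stitched, aligned and deduplicated reads with the GeoMx NGS Pipeline and deposited the count of each probe without normalization, named by probe. They also deposited the Q3-normalized signal of each gene, 1 table per region, and tables of log2 fold changes, p-values and adjusted p-values for 12 comparisons, which were not used here.

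Q3-normalized signals were tested as log2(value + 1) with limma 3.58.1 (R 4.3.3). The 12 CT AOIs formed 1 fit with 4 groups, a moderated spread that followed the expression level, and Benjamini-Hochberg adjusted p-values over 15782 genes; interaction and region contrasts had no fold threshold. A log2 difference on this scale understates changes of low genes. For 15777 genes the counts over 48 AOIs equal those of exactly 1 deposited probe, and these counts entered edgeR 4.0.16 and DESeq2 1.42.0. Scripts were tested on simulated counts. Gene positions are from GENCODE (GRCm38). The replicates of a group differed by more than sampling noise (chi-square per gene 1.28 to 2.29).

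Named genes were the called genes, genes that the study names for CT, 10 genes with the lowest p among the others above background, 6 near background, and list members; some of these are not reported here. Members and lists were chosen with earlier results of these data known. Alternatives were other pseudocounts, a filter on low values, subtraction of the negative probes, other scalings and tools, no trend, the replicate number as a block and leaving out each mouse.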

Additional observations from a re-analysis of the deposited data

Results flagged for a closer look

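The following results were singled out because the flight difference differed between 2 sets of AOIs by a test of that difference. Between saline and BuOE mice in CT, the flight difference of *Mobp* differed by 1.64 and that of *Cldn11* by 1.43 on the log2 scale. *Mobp* remained past the threshold in all 11 other settings and in all 12 fits without 1 mouse, and *Cldn11* in 9 and 8. *Cldn11* was lost without FLT-SAL mouse 2, GC-SAL mouse 1, FLT-BuOE mouse 1 or GC-BuOE mouse 3.

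Between CT and FCT of the saline mice, 5 genes differed. *Nptx1* (1.56) was past the threshold in 11 of 12 other settings and 5 of 6 fits without 1 mouse. *Hs3st4* (1.38 ± 0.23 SE, limma adjusted p = 0.0024) read 65.2, 81.5 and 76.4 in FLT-SAL and 144, 100.4 and 114 in GC-SAL in FCT, an order opposite to that in CT. *Igsf21* (1.41, limma adjusted p = 0.0024), which encodes a synaptic immunoglobulin protein, read 42.9, 51.5 and 47.7 against 37.6, 35.6 and 25.1 in CT and 32.6, 34.3 and 44.1 against 63.2, 65.9 and 75.3 in FCT. *Kcnh5* (-1.34, limma adjusted p = 0.026) and *Tmem178* (1.05, limma adjusted p = 0.034) remained past the threshold in 1 of 6 fits without 1 mouse, the fit without GC-SAL mouse 2. *Hs3st4* was past it in 3 of these 6 fits, *Igsf21* in 4, and the fit that lost *Nptx1* was without GC-SAL mouse 1. Of the 12 other settings *Hs3st4* and *Igsf21* were past the threshold in 9 each, and *Kcnh5* and *Tmem178* in 6 each. These 4 genes were lost against the mean of FCT, CA and DG, and *Kcnh5* and *Tmem178* were also lost with the replicate number as a block. *Hs3st4* belongs to the deep layer list and *Kcnh5* to the upper layer list, and the part of layer position was not tested.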

How the results depend on the processing

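The 55 results gave 1111 recomputed values. Reversal was recorded only for the single genes among these results, and none of those genes changed the sign of its log2 difference. When 1 mouse was left out, the median turned sign in 9 of the 20 lists (pan-neuronal, excitatory, GABAergic, precursor, microglial, endothelial, meningeal, matrix and oxidative phosphorylation). The pan-neuronal median of 0.16 ran from -0.08 without GC-SAL mouse 3 to 0.34 without GC-SAL mouse 2. The 14 calls in CT became 27 after quantile normalization (14 higher, 13 lower), 37 with edgeR (17 higher, 20 lower), 23 with the replicate block (15 higher, 8 lower) and 4 without the mean-variance trend, and all 14 were among the 27, the 37 and the 23. Leaving out 1 mouse gave 9 (without FLT-SAL mouse 2) to 22 (without GC-SAL mouse 2). A limma fit of the 6 saline AOIs alone gave 13 calls and lost *Rbm3*. In that fit the limma adjusted p was 0.00011 for *Mobp* and 0.016 for *Egr3*. There were 3 interaction genes, 1 without the trend and 2 to 5 without 1 mouse. Where 5 genes differed between CT and FCT, 3 did after subtraction of the negative probes, 2 with DESeq2 (1 of the 5), 3 with the replicate block, 3 against the mean of the other 3 regions (1 of the 5), and 0 without the trend in limma, where 861 genes had an unadjusted p below 0.05, while edgeR gave 7; without 1 mouse they were 1 (without mouse 2 of FLT-SAL, and without mouse 1 of GC-SAL) to 10 (without GC-SAL mouse 2). The myelin sheath median of 0.60 became 0.89 after subtraction of the negative probes and 0.51 to 0.68 without 1 mouse. The cause of these shifts was not tested. The deviations of same-numbered saline mice had correlations of 0.028, -0.0088 and -0.19, and those of unlike-numbered mice ran from -0.22 to 0.23. The 3 deviations of a group sum to 0, so these values cannot decide whether same-numbered mice share structure, which was not tested. In simulated counts of this comparison with 15777 genes, changes were placed only in genes above a minimum mean count. Of the 2-fold changes limma recovered 80%, and it made 4 false calls. Recovery at the 1.5-fold threshold is not given here.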

Other observations

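*Cacna2d1*, a calcium channel subunit gene named here after its values were seen, had the lowest log2 difference of the genes in CT that were not called (-1.07 ± 0.32 SE, limma adjusted p = 0.35). It read 15.3, 16.01 and 10.8 in FLT-SAL and 15.8, 19.7 and 86.6 in GC-SAL, so 1 mouse, GC-SAL mouse 3, carried it, and edgeR called it (adjusted p = 0.0019).

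*Dbndd2*, *Cplx2* and *Slit1* were higher in flight and *Dmtn*, *Ear1* and *Dok3* lower among the 10 genes with the lowest p that were not called. Their groups did not overlap, as in 10.4% of all genes, and choosing genes by a low p favours this. *Dbndd2* read 103, 125 and 119 in FLT-SAL and 67.9, 69.9 and 69.8 in GC-SAL, and *Cplx2*, a regulator of synaptic vesicle fusion, 177, 230 and 302 against 119, 170 and 129. *Dmtn*, which encodes an actin-bundling protein, read 110, 105 and 125 against 167, 200 and 158, and *Ear1* 24.7, 24.0 and 21.0 against 42.4, 38.1 and 42.8.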
